A study of Mus musculus with 4 samples.

Results

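The regions described here were 749 FOXL2 ChIP-seq peaks that lay between genes, at an intermediate distance from them, out of 11434 peaks on chromosomes 1 to 19 and X. They were chosen by position alone, with no measured value of binding. The centre of such a peak lay outside every protein-coding gene body, more than 10 kb and at most 100 kb from the nearest protein-coding gene border, and more than 1 kb from every border of a long non-coding RNA (lncRNA) gene. A border is either end of the annotated gene, and genes were those of RefSeq on assembly GRCm38.p6, which mm10 denotes. The 749 intergenic peaks made up 6.55% of the peaks on these chromosomes (exact 95% binomial interval 6.10 to 7.02%). "Intergenic" refers to protein-coding genes only, since 143 of the centres lay inside a lncRNA gene and 50 lay in or within 1 kb of a gene of another kind.

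The study mapped FOXL2 on the chromatin of fetal ovaries from CD1 mice, a commonly used outbred stock, at stage E14.5. In ChIP-seq, an antibody pulls down a protein with the DNA it sits on, and that DNA is sequenced. There were 2 FOXL2 ChIP samples and 2 input samples, the latter without antibody, all from XX gonads that had been freed of the mesonephros. Each ChIP used 20 to 30 µg of chromatin from 80 to 100 pooled ovaries and 4 µg of FOXL2 antibody, and the pools differed between the experiments. No allele, treatment or other stage was part of the design. Whole ovaries hold pregranulosa, germ, stromal and endothelial cells, so binding in a few cells of a type and weak binding in many cells cannot be told apart. The authors deposited 1 list of 11438 peaks for both ChIP samples, with positions on build mm10 and no score, height or value per replicate. Every peak was 300 bp wide. No peak therefore has a replicate error, the read depth is unknown, and the labelled tissue could not be checked by its marker genes from these positions. Intervals below are exact 95% intervals (binomial for shares, Poisson for densities) that cover counting error only and treat peaks as independent.

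FOXL2, a member of the forkhead family of transcription factors, marks granulosa cells, the somatic cells that surround and nourish oocytes. At this fetal stage those cells are pregranulosa cells. FOXL2 is also known, together with WNT signalling, as a factor of ovarian fate, opposed to the Sertoli cell programme of the testis. The stage at which it holds that fate is not addressed by these positions. Transcription factors bind both at promoters, next to the start of a gene, and at enhancers, which can lie many kilobases away and need not act on the nearest gene. For that reason the flanking protein-coding gene on the other side is given beside most regions named below, and no target gene is assigned.

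The genome sequence under the peaks was not used here, so sequences were taken from RefSeq tables of GRCm38.p6 for the non-coding genes that intergenic peaks lay beside. MicroRNAs (miRNAs) are short RNAs that repress mRNAs through pairing with their seed, bases 2 to 8, printed in capitals. The first set is the Mir17 cluster on chromosome 14, because 3 intergenic peaks lay just upstream of it. Its miRNAs are best known for promoting proliferation and survival. Grouped by seed, miR-17-5p and miR-20a-5p share AAAGUGC, miR-19a-3p and miR-19b-3p share GUGCAAA, and miR-18a-5p and miR-92a-3p each have their own.
miR-17-5p: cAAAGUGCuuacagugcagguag
miR-20a-5p: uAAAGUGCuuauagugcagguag
miR-18a-5p: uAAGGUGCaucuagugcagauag
miR-19a-3p: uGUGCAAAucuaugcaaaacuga
miR-19b-3p: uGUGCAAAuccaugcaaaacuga
miR-92a-3p: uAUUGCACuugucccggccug

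The second set holds miR-9, which is made from 3 separate genes that each had an intergenic peak within 15 kb, and the let-7 cluster of chromosome 13, whose members share the seed GAGGUAG. miR-9 is best known from neural progenitors and let-7 as a brake on cell growth and a regulator of developmental timing. miR-193a-3p is shown because its hairpin was the miRNA gene closest to an intergenic peak. The 5p arm of miR-9 is the same sequence for all 3 genes.
miR-9-5p: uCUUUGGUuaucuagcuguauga
let-7a-5p: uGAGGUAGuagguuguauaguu
let-7f-5p: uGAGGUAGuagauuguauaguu
let-7d-5p: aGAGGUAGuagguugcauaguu
miR-193a-3p: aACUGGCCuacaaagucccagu

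The third set holds the stretches in which an intergenic peak overlapped a listed promoter window, which runs from 250 bases before to 50 bases after a listed transcript start. Of 725 intergenic peaks on chromosomes that this table covers, 4 overlapped such a window, all of lncRNA genes. These starts lie inside the genes' outer borders, which is why the regions passed the distance rule. The longest 3 stretches are given 5′ to 3′ on the strand of the lncRNA, with a match to a searched motif in capitals. They are chr3:88214404-88214531 (plus strand, Gm3764, near Mir9-1), chr7:79515360-79515484 (plus strand, Mir9-3hg, the host gene of Mir9-3) and chr5:148959852-148959970 (minus strand, Gm15411).
Gm3764: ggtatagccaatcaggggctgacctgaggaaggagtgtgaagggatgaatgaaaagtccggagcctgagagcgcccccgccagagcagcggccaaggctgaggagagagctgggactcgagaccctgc
Mir9-3hg: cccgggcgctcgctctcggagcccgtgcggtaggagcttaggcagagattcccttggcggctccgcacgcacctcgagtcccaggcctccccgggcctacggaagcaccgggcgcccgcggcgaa
Gm15411: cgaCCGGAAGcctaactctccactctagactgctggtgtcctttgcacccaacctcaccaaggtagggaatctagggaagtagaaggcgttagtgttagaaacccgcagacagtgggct

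In all, 12 motifs were searched on both strands. For forkhead factors the motif was GTAAACA, for the orphan receptor NR5A1 it was CAAGGTCA, and for GATA factors it was AGATAA. The TCF and LEF factors of WNT signalling were represented by ATCAAAG, the RUNX factors by ACCACA, the TEAD factors of Hippo signalling by GGAATG and the SOX factors by ACAATNG. The remaining motifs were TGANTCA for the AP-1 dimers, TGACGTCA for the cAMP response element, CCGGAAG for the ETS family, GGGCGG for the GC box and CCACNAGG for the core of the CTCF site. A shorter forkhead core, TAAACA, which lies within GTAAACA, was counted only in the gene promoters described below. It was not searched in these stretches. Of the 12 motifs, the only match in these stretches was the ETS motif in Gm15411. The GC content was 61.7% for the Gm3764 stretch, 73.6% for Mir9-3hg and 53.8% for Gm15411. These letters cover only the overlap of each peak with the window, so nothing is said about the rest of the peak.

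The distance rule places these regions between the promoter-rich borders and the deep intergenic sequence. Sequence that could hold such a peak under the rule, called eligible below, came to 568.7 Mb, and the intergenic peaks had a density of 1.32 per Mb of it (1.22 to 1.41). Peaks outside genes at 1 to 10 kb had a density of 1.83 per Mb, and those over 100 kb from any gene 0.388 per Mb (0.344 to 0.436). Within 1 kb of a protein-coding border the density was 92.4 per Mb, and deeper inside genes it was 2.36 per Mb. The intergenic density thus lay above that of sequence farther away, with intervals that did not overlap, and below that of every other class counted. These classes are fixed by position, so the ordering describes the list and not the strength of any site.

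Within the class the density was lower at greater distance from genes. At 10 to 20 kb it was 1.69 per Mb (235 peaks), at 20 to 30 kb 1.53, and at 30 to 40 kb 1.38. From 40 to 70 kb the values were 1.14, 1.25 and 1.37 per Mb in successive 10 kb steps, with intervals that overlapped one another. Beyond 70 kb they were 0.668, 0.661 and 0.786 per Mb, from 26, 23 and 25 peaks. The interval at 60 to 70 kb (1.04 to 1.76) lay above that at 70 to 80 kb (0.436 to 0.979), whereas the other neighbouring steps overlapped. The median distance to the nearest border was 29.4 kb (quartiles 18.1 and 51.3 kb), against 36.3 kb for eligible sequence.

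**Figure D1:**
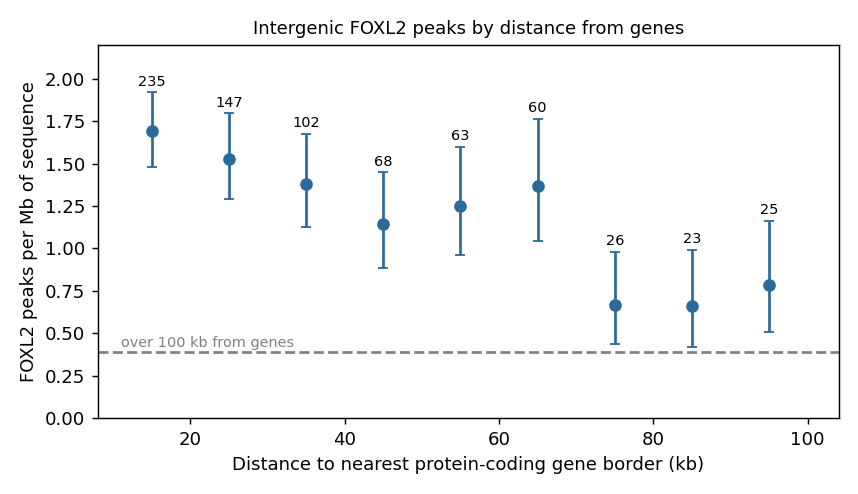
Density of intergenic FOXL2 peaks (peaks per Mb of eligible sequence, vertical axis) in 10 kb steps of distance to the nearest protein-coding gene border (kb, horizontal axis). Points are densities, bars are exact 95% Poisson intervals, the number of peaks stands above each point, and the dashed line marks the 0.388 per Mb of peaks over 100 kb from genes; the 3 steps beyond 70 kb lie lowest.

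The limits of 10 and 100 kb cut through a continuous range. The regions just inside the lower limit lay 10005 bp from Ceacam15, 10037 bp from Bnip3 and 10103 bp from Rnase2a, and the peaks just outside it lay 9985 bp from Aqp11, 9950 bp from Actl6a and 9949 bp from Slc12a7. At the upper limit, regions at 99.7 kb from Slc25a26, 99.4 kb from Sst and 99.2 kb from Gja1 were included. Peaks at 100.2 kb from Dazl, 100.7 kb from Actl7b and 100.8 kb from Selenok were not. Peaks on either side of a limit therefore differ by little in position.

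Intergenic peaks lay in shorter gaps between genes than eligible sequence does. Both flanking protein-coding genes could be named for 746 of them, and 3 had a gene on one side only. The median gap was 129.8 kb, against 190.3 kb for eligible sequence. Gaps under 50 kb held 14.48% of the peaks (12.03 to 17.2%) and 8.41% of eligible sequence, while gaps over 500 kb held 10.5% (8.35 to 12.9%) and 20.4%. The farther of the flanking genes lay at a median of 90.2 kb (quartiles 46.6 and 199.7 kb).

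The nearest gene often carried a FOXL2 peak of its own at a border. Of all 21627 protein-coding genes, 35.7% had a peak within 1 kb of a border. The nearest gene had such a peak for 357 of the 749 intergenic peaks, or 47.7% (44.0 to 51.3%), whereas 34.5% of eligible sequence has such a gene nearest. Both flanking genes had a border peak for 171 intergenic peaks (22.8% against 14.4% of eligible sequence), and neither had for 220 (29.4% against 45.4%). The start of a gene could be told from its end only where strand was listed, for 479 intergenic peaks on 15 chromosomes. Of these, 248 faced the start of the nearest gene (51.8%, 47.2 to 56.3%), close to the 54.2% of eligible sequence that does. Where the peak faced the start, the nearest gene had a border peak in 137 of 248 cases (55.2%, 48.8 to 61.5%; eligible sequence 34.7%), and where it faced the end, in 103 of 231 (44.6%, 38.1 to 51.2%; eligible sequence 32.7%). These last intervals overlap each other, and both lie above their eligible share.

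Promoters of the nearest genes were read from the same RefSeq table on the 15 chromosomes with strand, 431 promoters in all. The forkhead motif GTAAACA was present in 3.48% of them (1.96 to 5.68%) and in 3.65% of the 14180 promoters of all protein-coding genes there. The shorter core TAAACA was found in 11.1% (8.33 to 14.49%) and 13.4%. The GC box, a site of SP/KLF factors common in housekeeping promoters, was present in 67.1% of the nearest genes' promoters (62.4 to 71.5%) and 49.2% of all. Split by border peaks, the GC box stood in 79.5% of promoters of nearest genes with a border peak (all such genes 72.8%) and in 54.0% of those without (all such genes 36.2%). The median GC content of the promoters was 61.0% for nearest genes and 56.3% for all, so the GC box moved together with base composition, whose part in it was not tested. The AP-1 motif TGANTCA was found in 4.87% (3.04 to 7.35%) and 8.39% of all, and the interval of each other motif except RUNX held the share of all promoters. For RUNX the shares were 13.2% (10.17 to 16.79%) and 16.84%. AP-1 and RUNX motifs were also rarer in promoters of all genes with a border peak than without. For AP-1 these shares were 4.70 and 10.43%, and for RUNX 12.37 and 19.31%. Split in this way, the RUNX intervals of nearest genes held these shares (6.37 to 14.75% with a border peak, 11.83 to 22.31% without). The AP-1 interval held its share with a border peak (1.58 to 7.04%) but lay below it without (3.32 to 10.31%). The part of base composition was not tested here either. These matches describe promoters of neighbouring genes, 10 kb or more from the peaks, and not the peaks.

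Intergenic peaks were spread over many loci, and whether they were more or less gathered than random placement would give was not tested. They fell into 635 gaps between neighbouring protein-coding genes, of which 544 held a single such peak, 77 held 2, 8 held 3 and 6 held 4. Another FOXL2 peak lay within 10 kb of 51 of the 749 (6.81%, 5.11 to 8.86%), against 21.4% of all peaks, most of which lie at gene borders that the rule keeps at least 10 kb away. For peaks outside genes at 1 to 10 kb the share was 36.5% (31.6 to 41.5%), and for peaks over 100 kb from genes it was 1.77% (0.576 to 4.07%). The nearest other peak of any class lay at a median of 41.8 kb, and the nearest other intergenic peak at 571.7 kb.

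The 6 gaps with 4 intergenic peaks were short next to the longest gaps of the set. The shortest, of 153 kb, lay between Wnt7b, a WNT ligand, and Ppara, a nuclear receptor of fatty acid metabolism, with peaks 43.9, 64.4, 71.8 and 89.96 kb from Wnt7b. Between Chd2, a chromatin remodeller, and Fam174b (199 kb), peaks lay 42.8, 53.5, 65.2 and 76.5 kb from Chd2, and the first 3 of them were inside the lncRNA gene Gm30149, which is 25.5 kb long. The gap of 242 kb between Pdk3, a kinase of the pyruvate dehydrogenase complex, and Zfx, a zinc finger factor, was the one on chromosome X, with peaks 68.8, 79.3, 90.6 and 148 kb from Pdk3. Peaks were therefore strung along these gaps, with several kilobases or more between most neighbours.

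Foxd1, a forkhead factor of kidney stroma, and Tmem174 flanked 4 intergenic peaks in 278 kb, of which 3 lay at the Tmem174 end, 21.5, 45.9 and 61.9 kb from it. Between Haao, an enzyme of tryptophan breakdown, and Zfp36l2, an RNA-binding protein that promotes mRNA decay (335 kb), peaks lay 12.8, 54.7, 79.2 and 248 kb from Haao. Between Ly86, which encodes the innate immune protein MD-1, and Rreb1, a zinc finger factor of RAS signalling (359 kb), peaks lay 63.7, 64.4, 95.3 and 296 kb from Ly86. Another 2 intergenic peaks lay on the other side of Ly86, so that it flanked 6, the most of any gene. Ly86 itself had no border peak. Smad6, which encodes an inhibitory SMAD of BMP signalling, came next with 5.

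**Figure D2:**
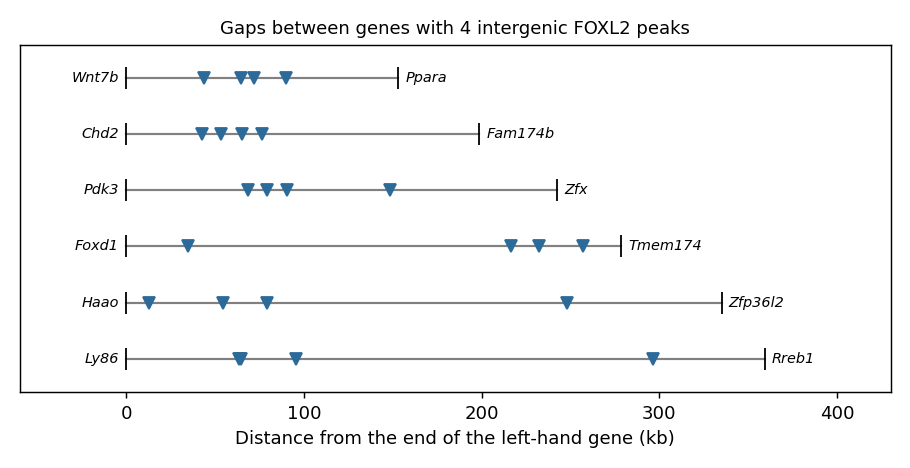
The 6 gaps between neighbouring protein-coding genes that held 4 intergenic FOXL2 peaks, drawn to scale (distance from the end of the left-hand gene in kb, horizontal axis). Vertical ticks are the gene borders and triangles the peak centres; 3 of the 4 peaks in the Foxd1 gap lie at its Tmem174 end, and 2 of those beside Ly86 nearly coincide.

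The closest pair of intergenic peaks was 539 bp apart, between Slitrk5 and Gpc5 next to the Mir17 cluster. The next pairs were 714 bp apart between Ly86 and Rreb1, 812 bp between Usp14 and Rock1, 893 bp between Bicd2 and Ippk, and 1074 bp between Ankef1 and Snap25. At these spacings the 300 bp peaks do not overlap. At the other extreme, the longest gaps that held an intergenic peak were Olfm4 to Pcdh17 (4420 kb, 65.9 kb from Olfm4), Igfbp7 to Adgrl3 (3611 kb, 52.1 kb from Igfbp7) and Tenm2 to Mat2b (3442 kb, 45.5 kb from Mat2b).

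Chromosomes differed in how many intergenic peaks they held per Mb. The density was 0.403 per Mb on chromosome X (21 peaks, 0.249 to 0.615) and 1.41 on the autosomes (728 peaks, 1.31 to 1.52). The order was the same for FOXL2 peaks of all classes, with 1.82 per Mb of chromosome X and 4.57 of the autosomes, and the share of peaks that were intergenic was 6.77% on X (4.24 to 10.2%). Among autosomes the density ranged from 0.841 per Mb on chromosome 16 to 2.08 on chromosome 11, with 1.99 on chromosome 19 and 1.92 on chromosome 13. On chromosome 13 the intergenic peaks also made up the largest share of a chromosome's peaks, 58 of 505 (11.5%, 8.84 to 14.6%). The interval of X overlapped that of chromosome 16 (0.481 to 1.37) and of no other chromosome.

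**Figure D3:**
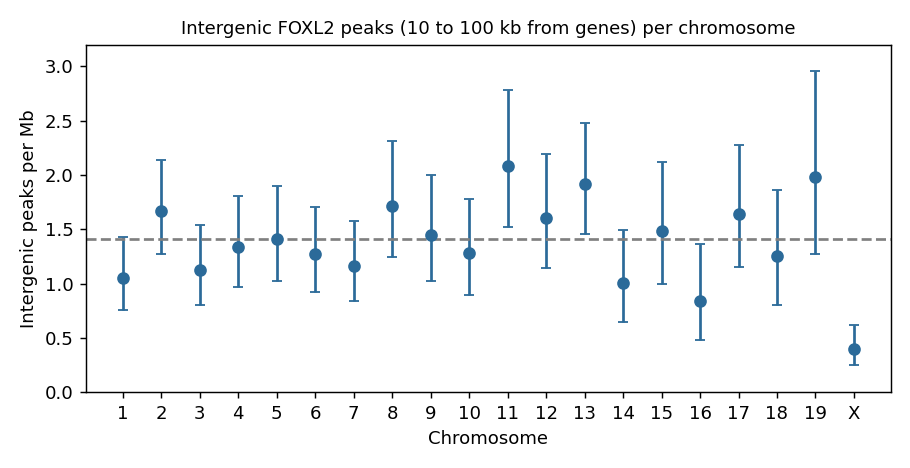
Intergenic FOXL2 peaks per Mb of eligible sequence (vertical axis) on each chromosome (horizontal axis), with exact 95% Poisson intervals. The dashed line marks the 1.41 per Mb of all autosomes; chromosome X, at 0.403, lies lowest.

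Genes of the fetal ovary and its lineages were examined through lists of known members, and a listed gene was counted where it flanked an intergenic peak on either side, at any distance. Over all protein-coding genes, 1228 of 21627 flanked one (5.68%), or 9.82% of the 12506 genes that border eligible sequence, and 672 were the nearest gene to one (3.11%). Of 24 pregranulosa genes, 12 flanked an intergenic peak, and all 24 border eligible sequence. The count was 6 with only the nearer flanking gene of each peak and 7 with flanks within 100 kb. Their gaps held 15 intergenic peaks at 3.43 per Mb (1.92 to 5.65), against 1.32 for all eligible sequence. The Sertoli list had 6 of 23 (3.68 per Mb, 1.76 to 6.76), the early gonad list 7 of 21 (2.97, 1.36 to 5.64) and the later granulosa list 5 of 24 (2.41, 0.885 to 5.25), or 3 under each of those restrictions. With only the nearer flanking gene, the Sertoli count was 4 and the early gonad count 5, close to the 6 of the pregranulosa list. With flanks within 100 kb, the Sertoli count was 5 and the early gonad count 7. The densities of these 4 lists had intervals that overlapped one another, and only that of the last reached down to 1.32. A gene in a longer gap has more sequence in which to flank a peak, and the density per Mb divides by that sequence. Density was itself higher in shorter gaps, since gaps under 50 kb held 14.48% of the peaks and 8.41% of eligible sequence. The lists were not matched for gap length, so its part in their densities was not tested.

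Foxl2 itself was flanked by 1 intergenic peak, at chr9:98973139-98973438, 15.2 kb from Foxl2 and 13.1 kb from the start of Faim, an inhibitor of apoptosis. Foxl2 had no border peak, whereas Faim had one. Among WNT genes of the pregranulosa list, a peak lay 11.2 kb from Axin2, a feedback inhibitor and common readout of WNT signalling (chr11:108961814-108962113, Rgs9 263 kb). The receptor gene Fzd1 had peaks 16.5 and 54.7 kb beyond its end (other flank Mterf1b, 540 and 501 kb), and the inhibitor gene Nkd1 one at 66.9 kb (Brd7 92.2 kb). For Lef1 and Ctnnb1, which encode the nuclear partners of the pathway, the flanking peaks were at 291 and 330 kb, and lay closer to Rpl34 (88.5 kb) and Rpl14 (28.3 kb).

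Other transcription factor genes of the same list stood at distances from 20.0 to 530 kb. Nr2f2, which encodes COUP-TFII, had 2 at 20.0 and 26.5 kb beyond its end, inside the lncRNA gene Gm29683 (other flank Arrdc4, 1583 and 1576 kb). The homeobox gene Irx5 had one at 25.8 kb, inside the lncRNA gene Crnde (chr8:92331838-92332137), whose other flank, Irx3, was 530 kb away. A second Irx3 peak lay at 112 kb and 18.3 kb from Fto. Msx1 was 143 kb from its peak, which lay 69.1 kb from Stx18. Cdkn1b, the cell cycle inhibitor p27 that marks pregranulosa cells as they stop dividing, had peaks at 22.1 kb, inside the lncRNA gene Lockd, and at 36.7 kb (other flank Apold1, 34.3 and 19.8 kb). The TGF-beta family ligand gene Bmp2 was 562 kb from its peak (Fermt1 44.2 kb). Of the 12 genes, 4 also had a border peak (Fzd1, Cdkn1b, Ctnnb1 and Bmp2), close to the 35.7% of all protein-coding genes that had one.

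Genes of the Sertoli list, the testicular counterpart of granulosa cells, included Sox9, the factor that drives Sertoli fate. Its intergenic peak lay 31.4 kb away at chr11:112818959-112819258, and the other flank, Slc39a11, was 426 kb away. Fgfr2, the receptor of FGF9 in the fetal testis, had peaks 32.7, 63.6 and 88.5 kb beyond its end (other flank Wdr11, 438 to 494 kb). Inhbb, an activin subunit, had one at 28.9 kb (Gli2 332 kb), and the secreted protein gene Cbln4 had a pair at 29.3 and 32.3 kb, 2.99 kb apart (Dok5 1127 and 1124 kb). Sox10 was 48.3 kb from a peak that lay 16.3 kb from Pick1, and Hsd17b3, an enzyme of testosterone synthesis, was 101 and 143 kb from peaks that lay 57.0 and 14.99 kb from Ercc6l2. None of the 6 genes had a border peak, against 35.7% of all protein-coding genes, and 6 genes are too few to set apart from that share.

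Among regulators of the early gonad, Nr5a1, the steroidogenic factor needed for gonad formation, was 34.04 kb from a peak at chr2:38658466-38658765 that lay 14.7 kb from Psmb7. Wt1, needed for the gonadal ridge, was 52.1 and 99.3 kb from peaks whose other flank was Eif3m (57.4 and 10.2 kb). Peaks lay 40.2 kb from the start of Emx2 (Pdzd8 72.7 kb), 14.9 kb from Cbx2 (Enpp7 14.9 kb), 19.9 and 72.7 kb from Gadd45g (Diras2 636 and 583 kb) and 26.5 kb from Kdm3a (Reep1 47.9 kb). Of the genes named here, Cbx2 and Kdm3a had a border peak, as did 35.7% of all protein-coding genes. On the list of genes of later granulosa cells, the gap junction gene Gja1 had peaks at 38.0 kb (Tbc1d32 110.3 kb) and 99.2 kb (Hsf2 994 kb), Foxo1 at 72.1 kb (Maml3 90.9 kb) and Nr5a2 at 73.3 kb (Zfp281 139 kb). Ccnd2 and the activin subunit gene Inhba were 224 and 245 kb from theirs, which lay 70.7 kb from Parp11 and 29.3 kb from Gli3.

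Markers of the other cells of a fetal ovary were counted in the same way. Of the germ cell list 4 of 20 genes flanked a peak (3.06 per Mb, 0.833 to 7.83). Nanos3 was 21.2 kb from one that lay 13.2 kb from Zswim4, Meioc 32.0 kb from one 25.3 kb from Fzd2, Dppa3 40.1 kb from one 37.2 kb from Nanog, and Prdm1 469 kb from one 69.5 kb from Prep. Of endothelial and blood genes there were 4 of 20 (3.07 per Mb, 0.997 to 7.16), with peaks 11.8 kb from Erg (Kcnj15 47.1 kb), 15.9 kb from Tie1 (2610528J11Rik 21.2 kb), 16.8 kb from Cd34 (Cd46 60.9 kb) and 45.96 and 68.8 kb from Flt1 (Pomp 88.2 and 65.4 kb). Of the stroma and steroid cell list only Nr2f2, already counted as a pregranulosa gene, flanked a peak (0.725 per Mb, 0.0879 to 2.62). The neuron list had 2 of 20 (1.27 per Mb, Snap25 and Syt1). The housekeeping list also had 2 of 20, at 3.62 per Mb (0.438 to 13.1) from only 0.553 Mb of eligible sequence. That value was close to those of the pregranulosa and Sertoli lists, but its interval was too wide to set it apart from 1.32. The intervals of the germ cell, endothelial and stromal lists all held the value of 1.32 and overlapped those of the somatic gonad lists.

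By gene family, forkhead genes had the highest density of all 26 lists. Of 44 forkhead genes, 13 flanked 20 intergenic peaks, at 4.06 per Mb (2.48 to 6.27). That interval overlapped those of the Sertoli, housekeeping and pregranulosa lists and of the TGF-beta and BMP list below. The rank therefore does not set forkhead genes apart from them. With only the nearer flanking gene of each peak, 9 of the 44 were counted. Besides Foxl2 and Foxo1, peaks lay 10.8 kb from Foxf1 inside the lncRNA gene Fendrr (Irf8 317 kb) and 11.4 kb from Foxj1 (Exoc7 12.5 kb). Foxi3 had them at 14.9 and 87.6 kb (Rpl34-ps1 149 and 75.9 kb), Foxp4 at 42.2, 49.7 and 95.2 kb (1700122O11Rik 69.9, 62.4 and 16.9 kb), and Foxd1 as described above. The Sox list had 7 of 19 (2.39 per Mb, 1.03 to 4.72), with peaks 31.4 kb from Sox9, 31.5 kb from Sox1 inside Sox1ot (Spaca7 142 kb), and 48.3 kb from Sox10. Nuclear receptors had 6 of 47 (2.30 per Mb, 1.10 to 4.22), TALE and Irx homeobox genes 4 of 18 (1.94, 0.629 to 4.52) and other homeobox genes 14 (11.4% of that list, 1.66 per Mb, 0.985 to 2.63), among them Msx2 at 14.4 kb (Drd1 564 kb), Nkx2-3 at 15.2 kb (Slc25a28 32.7 kb) and Hoxb13 at 16.4 kb (Ttll6 11.8 kb). GATA and FOG genes (0 of 8) and Runx genes (0 of 5) flanked none, and with 1.14 and 0.924 Mb of eligible sequence the exact intervals for a count of 0 reach up to 3.22 and 3.99 per Mb.

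Among signalling pathways, the TGF-beta and BMP list had 15 of 69 genes beside 21 intergenic peaks, at 3.59 per Mb (2.22 to 5.48). With only the nearer flanking gene of each peak, 9 of the 69 were counted. Smad6 had 5, at 11.2, 25.3, 45.0, 62.9 and 96.5 kb, of which 3 lay in the gap of 195 kb it shares with Smad3 and 2 in that with Lctl. Skil, a repressor of SMAD signalling, had one at 10.97 kb (Cldn11 16.03 kb), Smad4, the common SMAD, at 11.7 kb (Mex3c 30.5 kb), and Id1, a BMP target, at 12.2 kb (H13 15.4 kb). Gdf6, a ligand, had 3 at 13.1, 18.7 and 68.1 kb (Asph 162, 156 and 106.9 kb), and Tgfbr1, a receptor, one at 23.0 kb (Alg2 31.9 kb). Besides this list, those whose interval lay wholly above 1.32 were the pregranulosa, Sertoli, early gonad and forkhead lists.

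The WNT list had 9 of 64 genes (2.44 per Mb, 1.30 to 4.17), with the ligand gene Wnt10a at 12.9 kb (Cdk5r2 37.9 kb) and the receptor gene Fzd2 at 25.3 kb (Meioc 32.0 kb) beside those named above. Notch genes numbered 4 of 28 (3.17 per Mb, 1.03 to 7.39), with the target gene Hes1 at 28.9 and 53.1 kb (Cpn2 160 and 135 kb). Hedgehog genes numbered 3 of 15 (2.56, 0.830 to 5.97), with peaks 26.8 kb from the co-receptor gene Gas1 (Tut7 324 kb) and 29.3 kb from Gli3, the one beside Inhba. FGF genes numbered 6 of 39 (2.12, 0.970 to 4.03), with Fgfr4 at 21.6 kb (Nsd1 19.4 kb) and Fgfr3 at 26.1 kb (Tacc3 23.4 kb). Immediate early genes numbered 5 of 27 (2.78, 1.02 to 6.06), with Fos at 18.4 kb (Tmed10 80.7 kb), Egr1 at 22.7 kb (Etf1 15.2 kb) and Fosb at 22.8 kb (Ercc1 11.2 kb), and Hippo genes 2 of 24 (1.28, 0.155 to 4.61), with Tead4 at 26.4 kb (Tspan9 57.2 kb). The intervals of these lists all reached to 1.32 or below it.

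Lists of structural and sensory genes gave values under 1.32 per Mb. Collagen, laminin and integrin genes had 5 of 90 (0.880 per Mb, 0.286 to 2.05), with Col17a1 at 13.2 kb (Sfr1 26.4 kb), and cadherin, adhesion and guidance genes 13 of 168 (1.107, 0.656 to 1.75), with Cdh3 at 10.9 and 12.2 kb (Zfp90 73.0 and 71.7 kb). Olfactory and vomeronasal receptor genes, clustered genes that are silent in most tissues, had 9 of 1459 beside 8 peaks, at 0.309 per Mb (0.133 to 0.609). Theirs was the only interval among the 26 lists that lay wholly below 1.32. At 3 of those 8 peaks a transfer RNA (tRNA) gene also lay within 1 kb, as described below. The lists share genes, and each density is a description of these positions with no test.

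**Figure D4:**
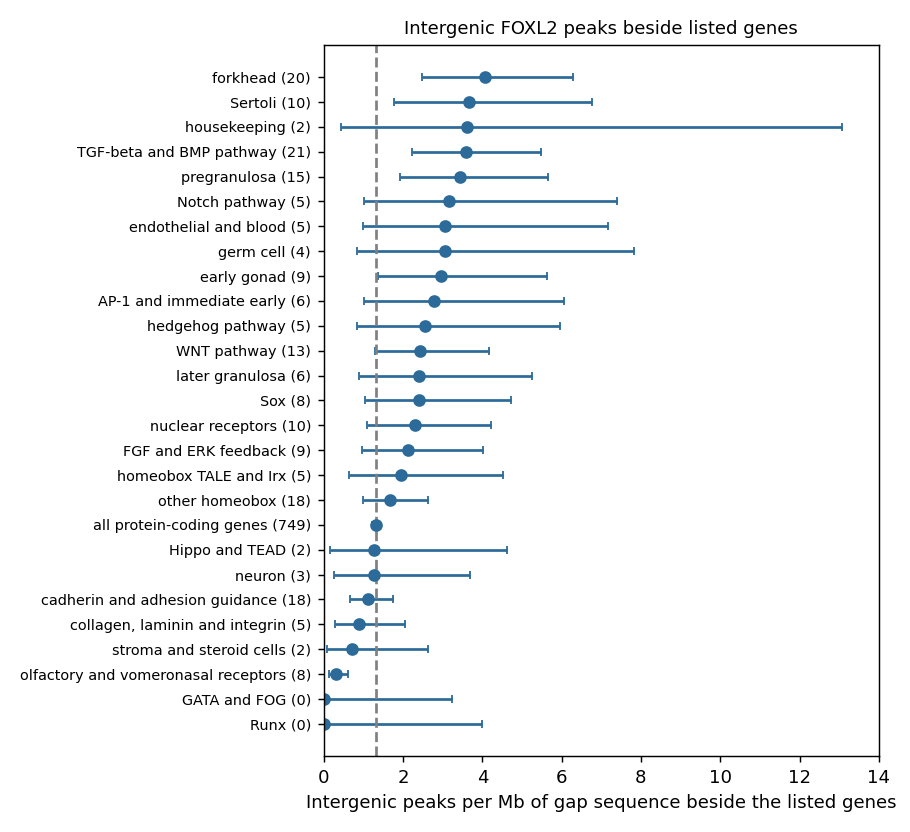
Intergenic FOXL2 peaks per Mb of eligible sequence in the gaps beside listed genes (horizontal axis) for 26 gene lists and all protein-coding genes (vertical axis, number of peaks in parentheses), with exact 95% Poisson intervals. The dashed line marks the 1.32 per Mb of all eligible sequence; forkhead genes lie highest at 4.06 and olfactory and vomeronasal receptors among the lowest at 0.309.

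Non-coding genes were not part of the rule beyond lncRNA borders. Centres of 143 intergenic peaks lay inside a lncRNA gene (19.1%, 16.3 to 22.1%), against 12.2% of eligible sequence. They fell into 140 lncRNA genes, some of which overlap, and 129 of these held 1 peak, while Gm30149 beside Chd2 held 3. Hosts with a known role included Fendrr beside Foxf1, Lockd beside Cdkn1b, Airn, the antisense RNA of the imprinted Igf2r region (41.0 kb from Igf2r, 28.2 kb from Mas1), and Xist, the RNA that silences an X chromosome. The Xist peak, at chrX:103482059-103482358, lay 1025 bp from its listed start and 57.6 kb from Tsx (Zcchc13 148 kb). Counting from listed transcript starts, which are incomplete on some chromosomes, 5 of 725 lay within 1 kb of a lncRNA start. These were Gm3764 (71 bp), Mir9-3hg (74 bp), Gm15411 (81 bp), C330002G04Rik (381 bp) and Gm34323 (817 bp), the last in the gap between Rpl14 and Ctnnb1.

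MicroRNA genes lay within 15 kb of 16 intergenic peaks (2.14%, 1.23 to 3.45%), against 0.574% of eligible sequence, a density of 4.897 per Mb (2.80 to 7.95). All 16 matched a hairpin in the RefSeq table, 26 hairpins in all. The 3 peaks at the Mir17 cluster, whose seeds are printed above, lay 3.26, 2.73 and 1.35 kb upstream of the Mir17 hairpin (chr14:115043671-115043754), in a gap of 3409 kb. Their nearest protein-coding gene was Gpc5, a glypican, at 49.9 to 51.8 kb, and the other flank was Slitrk5. The whole cluster, from Mir17 to Mir92-1, followed within the next kilobase on the plus strand. Neighbouring peaks stood 539 and 1374 bp apart, and all 3 were nearer to these miRNAs than to any protein-coding gene.

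Beside Mir193a a peak lay 420 bp upstream of the hairpin (Rab11fip4 13.5 kb, Utp6 222 kb). Each miR-9 gene had a peak nearby. For Mir9-1 peaks lay 1.05 and 14.7 kb upstream, the nearer of them over the internal start of Gm3764 (Rhbg 28.3 kb, Mef2d 42.5 kb). For Mir9-2 the peak lay 7.84 kb upstream (Mef2c 63.9 kb, Tmem161b 491 kb). For Mir9-3 it lay 10.2 kb downstream of the hairpin, over a start of Mir9-3hg (Polg 47.6 kb, Rhcg 77.9 kb). The let-7 cluster had a peak 8.10 kb upstream of Mirlet7a-1, 8.45 kb from Mirlet7f-1 and 10.3 kb from Mirlet7d, all on the minus strand (Ptpdc1 31.5 kb, Zfp169 32.9 kb). A peak 10.8 kb upstream of Mir23a, with Mir27a and Mir24-2 just beyond it, was the one between Zswim4 and Nanos3. Within 10 kb of a miRNA gene the count was 9 (1.202%, 0.551 to 2.27%; eligible sequence 0.366%), and within 1 kb it was 2 (0.267%, 0.0324 to 0.961%; eligible sequence 0.0457%), an interval that reaches below the eligible share. The radius of 15 kb was chosen after the values were seen.

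**Figure D5:**
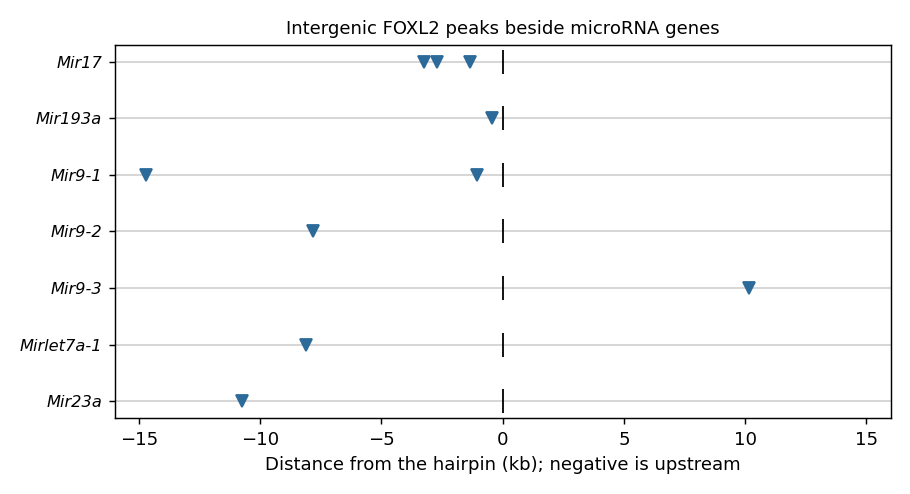
Positions of intergenic FOXL2 peaks (triangles) relative to miRNA hairpins (vertical ticks at 0) in kb along the strand of the miRNA, negative values upstream, for the named clusters by their first hairpin. The 3 peaks of the Mir17 cluster and that of Mir193a lie within 5 kb upstream, and the peak of Mir9-3 lies downstream.

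Transfer RNA genes, short genes transcribed by RNA polymerase III, also stood beside intergenic peaks. Within 1 kb of a tRNA gene lay 12 of the 749 (1.60%, 0.831 to 2.78%), while such sequence made up 0.0469% of what was eligible. The density there was 44.9 per Mb (23.2 to 78.5). Of 162 tRNA genes in eligible sequence, 25 had a peak within 1 kb (15.4%, 10.2 to 21.9%), and of all 408 listed tRNA genes 85 had (20.8%). Of these 12 peaks, 4 lay in the tRNA gene cluster on chromosome 13, for example 8 bp from n-TAagc17 between Trim27 and Gpx5, and 2 lay 1.45 kb apart between Osbp and Olfr1423 on chromosome 19. Single peaks at chr1:171102494-171102793 and chr3:19628491-19628790 each had 4 tRNA genes within 1 kb. The peak nearest to Wnt10a named above lay 267 bp from n-TGgcc3, and that nearest to Haao 154 bp from n-TIaat17. Whether signal at tRNA genes was also present in the input samples was not tested, since the list holds no input values.

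Of 47 other small RNA genes in eligible sequence, a group with telomerase, Y and 7SK RNAs, 5 had a peak within 1 kb (10.6%, 3.55 to 23.1%), and over the whole list of such genes 27 had (26.0%). This interval overlaps that of tRNA genes in eligible sequence. The group accounted for 3 intergenic peaks. These lay over Terc, the telomerase RNA gene (chr3:96414416-96414715, BC107364 19.2 kb, Fcgr1 121 kb), over Rny3, a Y RNA gene (chr6:47781517-47781816, Pdia4 14.48 kb, Gm40363 43.3 kb), and over Gm8350 (Zfp644 42.4 kb, Barhl2 116 kb). Small nuclear RNA genes had 2 intergenic peaks within 1 kb, and small nucleolar RNA genes none of 296 (up to 1.24% of those genes by the exact interval). Pseudogenes had 29 (3.87%, 2.61 to 5.51%), close to their 4.12% of eligible sequence.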

How the data were processed

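The authors deposited 1 list for both FOXL2 ChIP samples, whose columns give where each peak begins and ends in bp, without a header, score or strand. Per the submitters' processing notes, Bowtie 1.2, Picard 1.110, bedtools 2.24.0, HOMER 4.9 and build mm10 were used. What each tool did, the peak threshold and the handling of replicates and inputs were not given in the sources used here, although they set how many peaks exist. The depth is unknown, and weaker binding may exist where no peak is listed. Of 11438 peaks, 1 on chromosome Y and 3 on other sequences were left out.

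Starts were made 1-based and centres compared with the RefSeq gene table of GRCm38.p6 (49550 genes of all kinds on these chromosomes, 21627 protein-coding, 12697 lncRNA). Eligible sequence was counted on a grid of 1 kb steps. Assembly gaps and repeats to which reads cannot be mapped were not left out of it or of the sequence of the other classes. Their part in the densities per Mb, and in differences between them, was not tested. Gene strand came from the listed promoters, used on the 15 chromosomes where at least 80% of genes have one. The relative orientation of both flanks (68.9% of peaks there with a value) is void and not reported. Scripts used Python 3.11.15, numpy 2.4.6, pandas 2.3.3 and scipy 1.17.1, and were tested on simulated data. No test between groups was possible with 1 list.

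The regions and the 26 gene lists were chosen with earlier results of these data known. Named genes were those of the ovarian, testicular and gonadal lists that flank a region, up to 3 per other list nearest to a region, gaps with at least 4 regions, the 5 closest pairs, the 3 longest gaps, and regions next to each distance limit. Promoters, miRNAs, tRNAs, lncRNA hosts and the 3-region Mir17 gap were chosen after their values were seen, as were the further forkhead, SMAD and GDF genes. A few genes that this rule takes are not reported here. Alternatives are given in the closing section. Motifs within the peaks were not analysed here.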

Additional observations from a re-analysis of the deposited data

How the results depend on the processing

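Of 27 alternative values, 17 stayed within 1.5 times a count or within the interval of a share, and 10 moved. The 749 intergenic peaks became 494 when genes of all kinds set the distances. They numbered between 514 and 935 under the other limits, peak edges, lncRNA rules and merging. The share with another peak nearby was 6.81% at 10 kb, 3.34% at 5 kb, 57.8% at 50 kb and 4.94% when only intergenic peaks counted as neighbours. The 12 pregranulosa genes became 6 with only the nearer flanking gene and 7 with flanks within 100 kb, and the 5 later granulosa genes became 3 under each. Chosen after seeing the data, border limits of 500 bp and 5 kb gave nearest genes with a border peak for 40.7 and 57.4% of intergenic peaks, against 30.25 and 43.3% of all genes. At 1 kb these shares were 47.7 and 35.7%. The share of eligible sequence, set beside the main value, was not computed at 500 bp or 5 kb. Also chosen then, other tRNA distances and counting of neighbours once gave 10 to 12 peaks. Motif alternatives that need the sequence of the peaks, a stricter threshold and leaving out a replicate were not run, since the values at hand hold no sequence, score or replicate. No paired analysis was possible because both ChIP samples share 1 list without values per replicate.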

Other observations

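A single FOXL2 peak was listed on chromosome Y, at chrY:90734404-90734703, in tissue labelled as XX gonads, and 3 peaks lay on sequences other than the named chromosomes. These peaks belong to no comparison above.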
